A study of Mus musculus with 36 samples.

Results

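Potassium channel subunits are the subject of this account. They were taken by name alone, as the genes whose symbol is Kcn followed by letters and a number, and no measured value entered the choice. The rule found 91 of the 18845 genes in the deposited table, and all 91 matched a RefSeq gene. By symbol stem, 40 encode pore subunits of voltage-gated (Kv) channels, 15 encode auxiliary subunits, 15 are inward rectifiers (Kcnj), 13 are leak channels (Kcnk) and 8 are pore subunits of calcium- or sodium-activated channels.

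The RNA came from the RiboTag purification of mouse tissue, in which Cre switches on an HA-tagged form of the ribosomal protein Rpl22 and RNA bound to tagged ribosomes is recovered through the tag. Every animal carried the Ribo-tag allele, and the labels give no treatment that differs between groups. Cre-positive animals (genotype ChAT-Cre;Ribo-tag) gave synapse-enriched muscle, which the series design calls diaphragm, and Cre-negative animals (genotype Ribo-tag) gave the same tissue, so that the Cre-negative libraries show the background of the purification. Cre-positive animals also gave spinal cord, for which no Cre-negative samples were analysed here, so the background of the cord libraries was not measured. Sampling covered 4 ages, E15.5, P0.5, P10 and 2 months (called adult), and each of the 12 groups holds 3 libraries. ChAT-Cre acts in cells that make acetylcholine, which in the cord include motor neurons but also other cholinergic neurons. Whether replicates came from separate animals or from pools is not stated, so p-values measure only the spread between these samples, which may be technical.

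As background, potassium channels let potassium leave the cell and so set its resting potential, end each action potential and space out the next. Voltage-gated channels are built from pore subunits that open on depolarisation, joined by electrically silent pore subunits and by auxiliary subunits that change their gating or trafficking. Inward rectifiers and leak channels hold the membrane near rest and calcium-activated channels follow activity. In motor neurons such channels shape firing and the excitability of the axon beside its nodes, and in muscle fibres they shape the resting potential and repolarisation.

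Values are CPM, read counts scaled by the authors so that every library sums to 1000000. The depth recovered from the steps of the small values was 85985419 to 106976388 reads in Cre-positive diaphragm, 68183061 to 93720089 in Cre-negative diaphragm and 63704690 to 71750289 in cord. Genes at 0 made up 15.4 to 33.6% of Cre-positive diaphragm libraries, 23.05 to 46.2% of Cre-negative ones and 8.3 to 12.9% of cord ones. A 0 can stand beside high counts within a group: Kcnf1 had 1104, 0 and 254 reads in P0.5 Cre-negative diaphragm. Every fold given below as at least some value therefore bounds counting error only. In each of the 12 groups 1 library stood between the other 2. In that library 48.1 to 87.0% of genes had their middle value, against 2.5 to 34.7% in any other library. In 9 of the 12 groups this was replicate 3. The labels list it as a sample like the others, and whether it is a separate sample or holds material of the other 2 is not stated. If it did, a group would hold fewer than 3 independent samples, and the SDs, SEs and p-values printed for n = 3 would be too small. The number of members called in each comparison is therefore also given without these 12 intermediate libraries, which leaves 2 in a group. Chat, the enzyme that makes acetylcholine, was at 0 to 0.157 CPM in the 12 Cre-positive diaphragm libraries, at 0 in all 12 Cre-negative ones and at 10.4 to 73.8 CPM in the 12 cord libraries. The 6 motor neuron and cholinergic markers summed to no more than 70.6 CPM in any diaphragm library, with Mnx1 at 0 in all 24 of those, and to 1391 to 2228 CPM in cord. At E15.5 they summed to 46.8 to 66.0 CPM in Cre-positive and 12.3 to 70.6 in Cre-negative diaphragm, so the genotypes overlapped. In those Cre-negative libraries Chat, Slc18a3, Slc5a7 and Mnx1 were at 0. The 8 skeletal muscle markers summed to 20609.7 to 89305 CPM in diaphragm and 6.47 to 4364 CPM in cord.

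Together the 91 genes took up a small share of each library, larger in cord than in diaphragm and larger in older than in younger cord. In Cre-positive diaphragm the mean share was 0.0223 ± 0.001% at E15.5, 0.0171 ± 0.0026 at P0.5, 0.0179 ± 0.0011 at P10 and 0.0133 ± 0.0017 in adults (SD, n = 3 each). In Cre-negative diaphragm it was 0.0302 ± 0.0003% at E15.5, 0.023 ± 0.0083 at P0.5, 0.022 ± 0.002 at P10 and 0.0223 ± 0.0041 in adults. In spinal cord it was 0.0844 ± 0.0023% at E15.5, 0.0971 ± 0.0025 at P0.5, 0.1579 ± 0.0099 at P10 and 0.1679 ± 0.0077 in adults, and the 3 libraries of P10 and of adult cord all lay above the 3 of E15.5 and P0.5 cord. CPM are not corrected for gene length, so levels are compared here between groups for the same gene or the same sum, not between genes.

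Which class made up the cord share shifted with age. The 40 Kv pore subunits summed to 353 ± 4.66 CPM at E15.5, 336 ± 12.5 at P0.5, 879 ± 55.5 at P10 and 881 ± 46.5 in adults (mean ± SD, n = 3 each), with every P10 and adult library above every younger one. A few genes carried most of that difference: Kcng4, Kcna1 and Kcnh6, named after their values were seen, together averaged 71.0 CPM at E15.5, 52.4 at P0.5, 471 at P10 and 524 in adults. The other 37 averaged 282 CPM at E15.5, 284 at P0.5, 407 at P10 and 357 in adults. The 15 inward rectifiers summed to 33.9 ± 2.29 CPM at E15.5, 37.8 ± 1.01 at P0.5, 153 ± 14.4 at P10 and 219 ± 8.33 in adults, with separate libraries at each step after P0.5. Of this sum Kcnj14 held 3.57 CPM at E15.5, 5.05 at P0.5, 74.7 at P10 and 133 in adults, and the other 14 held 30.3 CPM at E15.5, 32.7 at P0.5, 78.2 at P10 and 86.4 in adults. The 13 leak channels summed to 115 ± 2.18 CPM at E15.5, 149.9 ± 2.60 at P0.5, 182 ± 11.8 at P10 and 163 ± 5.08 in adults. The 15 auxiliary subunits summed to 283 ± 26.9 CPM at E15.5, 406 ± 8.49 at P0.5, 308 ± 14.7 at P10 and 360.2 ± 13.9 in adults. The 8 calcium- or sodium-activated subunits summed to 59.1 ± 1.59 CPM at E15.5, 42.1 ± 1.77 at P0.5, 57.9 ± 3.60 at P10 and 55.4 ± 4.13 in adults. Neither of these sums followed the course of the pore subunits. In Cre-positive diaphragm the Kv pore sum ran the other way, at 135 ± 8.60 CPM at E15.5, 122 ± 20.02 at P0.5, 108 ± 3.73 at P10 and 70.8 ± 5.39 in adults, and Kcnh6 alone held 111 CPM of it at E15.5. The leak channels of Cre-positive diaphragm summed to 28.2 ± 3.06 CPM at E15.5, 4.24 ± 2.00 at P0.5, 4.25 ± 1.58 at P10 and 1.39 ± 0.53 in adults, and Kcnk3 held 19.0 CPM of the sum at E15.5.

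**Figure D1:**
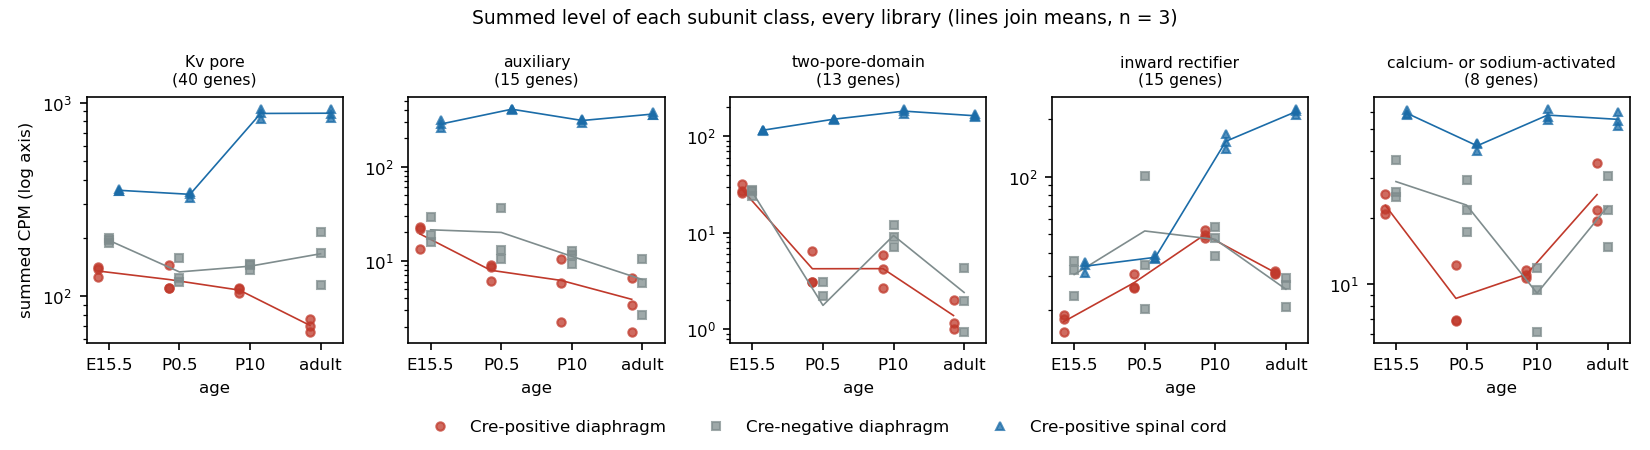
Summed CPM (log axis) of the 5 subunit classes against age. Points are single libraries of Cre-positive diaphragm (circles), Cre-negative diaphragm (squares) and Cre-positive spinal cord (triangles), and lines join group means (n = 3); the panel titled two-pore-domain holds the 13 leak channels (Kcnk). The cord sums of the Kv pore and inward rectifier classes lie higher at P10 and in adults than at E15.5 and P0.5, and the cord libraries lie above the diaphragm libraries for the Kv pore and auxiliary classes at every age.

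Presence differed between the tissues gene by gene. With 1 CPM as the mark of a measured mean, 44 members passed it in at least 1 diaphragm group and 65 in at least 1 cord group. 21 members passed it in all 4 cord groups and in no diaphragm group, and another 8 in a diaphragm group and in no cord group. 4 members passed it in all 12 groups, and 18 passed it in none, although no member was without a read. Those 18 are Kcna10, Kcng3, Kcnh3, Kcnh4, Kcnh5 and Kcnv2 among the Kv pore subunits, Kcne1, Kcne2, Kcnmb1 and Kcnmb3 among the auxiliary ones, Kcnj1, Kcnj4, Kcnj5, Kcnj6 and Kcnj13 among the inward rectifiers, and Kcnk7, Kcnk15 and Kcnk18 among the leak channels. Kcnj6, a G-protein-gated inward rectifier, had cord means of 0.437 CPM at E15.5, 0.325 at P0.5, 0.2 at P10 and 0.441 in adults, and Kcne1, an auxiliary subunit known from the heart and inner ear, had 0.234 CPM at E15.5, 0.0706 at P0.5, 0.0648 at P10 and 0.0724 in adults.

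**Figure D2:**
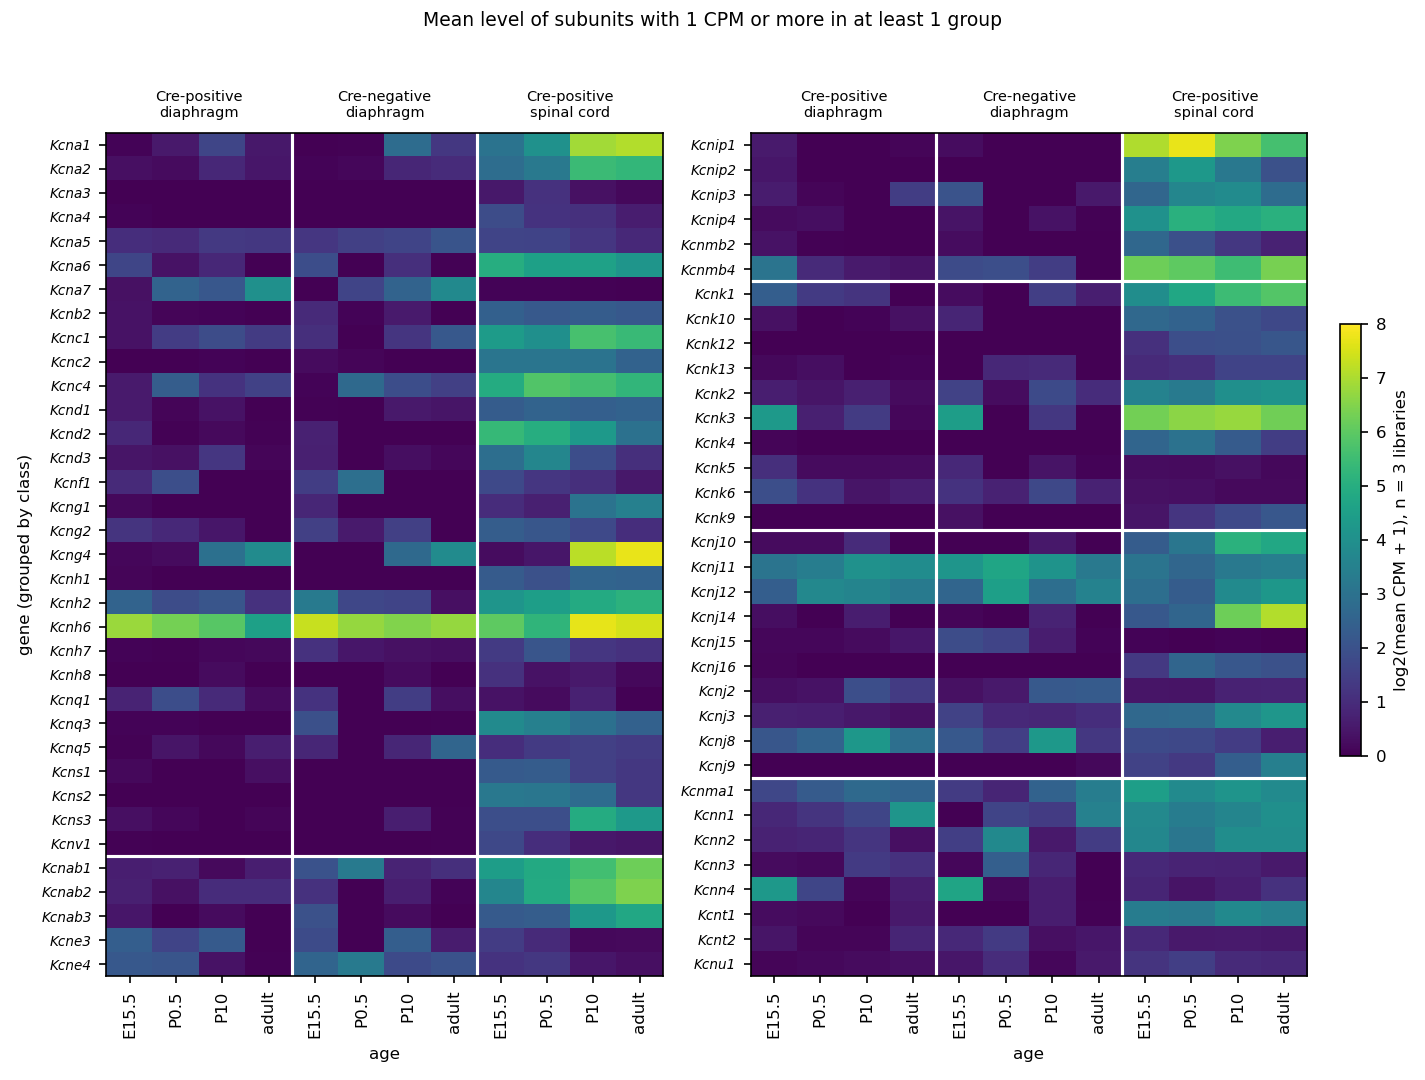
Mean level of subunits with 1 CPM or more in at least 1 group, as log2(mean CPM + 1) by colour, with genes down the page grouped by class and the 12 groups across it (ages within Cre-positive diaphragm, Cre-negative diaphragm and Cre-positive spinal cord, n = 3 libraries each). Most rows are brighter in the 4 cord columns than in the 8 diaphragm columns.

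The first question the ages answer is which subunits of the cord changed between the embryo and the adult. Differences are between group means of log2(CPM + 1), tested with limma over all genes with at least 1 CPM in 3 or more libraries of the fit and called at a Benjamini-Hochberg adjusted p under 0.05. On this scale the change of a low gene is understated. Of 64 members tested, 30 were higher and 28 lower in adult than in E15.5 cord, and 27 were too low for the test. The called share was 90.6% of the members against 84.4% of all genes tested (26.3% higher and 58.1% lower), so most genes of either kind were called. The adult and E15.5 libraries did not overlap for 58 members, against 84.5% of all genes. The median difference of the members was 0.16 and that of all tested genes -0.38. Without the intermediate libraries 51 members (29 higher, 22 lower) and 74.7% of all genes were called. Scalings that bring the median of all genes to about 0 move it by 0.37 to 0.39, and under quantile normalization 39 members were higher and 20 lower.

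By class, the inward rectifiers had 7 higher and 1 lower of 8 tested, with a median difference of 1.42, and this split was the same under quantile, RLE and TMM scaling. The leak channels had 5 higher and 2 lower of 8 tested (median 0.63). The Kv pore subunits had 12 higher and 18 lower of 32 tested (median -0.23), which became 17 higher and 11 lower under quantile normalization, and 15 of each under RLE scaling and in edgeR, so the balance of that class depends on the scaling. The auxiliary subunits had 4 higher and 5 lower of 11 tested, and the calcium- or sodium-activated ones 2 higher and 2 lower of 5 tested. The higher and lower calls without the intermediate libraries were 7 and 1 of 8 tested inward rectifiers, 5 and 2 of 8 leak channels, 12 and 13 of 30 Kv pore subunits, 4 and 5 of 11 auxiliary subunits and 1 and 1 of 5 calcium- or sodium-activated ones. Kcnj8 was the 1 inward rectifier called lower.

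The largest increase among the tested members was in an electrically silent subunit, and the silent subunits did not move as one. Kcng4 (chromosome 8, bases 119623854 to 119635680 of GRCm38.p6) encodes a pore subunit that forms no channel alone and changes the gating of Kcnb partners, and it is known as a marker of fast motor neurons. It had 0.171, 0.251 and 0.203 CPM at E15.5 and 0.486, 0.404 and 0.341 at P0.5. At P10 Kcng4 had 169.6, 116 and 146, and in adults 234, 190.1 and 208. Each age lay above the one before without overlap, and the adult minus E15.5 difference was 7.45 ± 0.11 (SE, adjusted p = 8.9e-17), or adjusted p = 5.7e-13 without the intermediate libraries. Kcng1, of the same silent type, had 1.15, 0.942 and 0.922 CPM at E15.5 and 0.572, 0.599 and 0.725 at P0.5. At P10 Kcng1 had 7.99, 6.55 and 7.27, and in adults 10.7, 10.1 and 9.96, a difference of 2.49 ± 0.09 (SE, adjusted p = 3.5e-13). Both older ages lay above both younger ones. Kcns3, a silent subunit as well, had 3.14, 2.51 and 2.61 CPM at E15.5 and 2.96, 2.65 and 2.86 at P0.5. At P10 Kcns3 had 30.5, 28.6 and 28.6, and in adults 21.8, 16.3 and 17.7. Its P10 libraries were the highest, and its P10 minus P0.5 difference was 2.98 ± 0.10 (SE, adjusted p = 6e-13). Kcns2, another silent partner of Kcnb, fell instead, with 8.50, 8.38 and 7.99 CPM at E15.5 and 8.24, 7.12 and 7.97 at P0.5. At P10 Kcns2 had 6.4, 5.84 and 5.55, and in adults 1.91, 1.05 and 1.48. The adult libraries lay below all younger ones (-1.92 ± 0.11 SE, adjusted p = 9.6e-11). Kcnb2, a pore subunit that carries slow delayed-rectifier current, had similar means at all 4 ages, at 4.45 CPM at E15.5, 3.71 at P0.5, 4.07 at P10 and 3.64 in adults. Its adult minus E15.5 difference of -0.23 was called, but it became 0.13 under RLE scaling, so no direction is given. Without the intermediate libraries it was not called (adjusted p = 0.13).

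The 2 pore subunits of the juxtaparanodal channel, which lies beside the nodes of myelinated axons, both rose, as did the 3 beta subunits. Kcna1, the first of the pair, had 7.43, 7.80 and 6.80 CPM at E15.5 and 16.8, 14.0 and 15.55 at P0.5. At P10 Kcna1 had 136, 100.4 and 119.9, and in adults 141, 129 and 133. All adult and P10 libraries exceeded all E15.5 and P0.5 libraries, and the adult minus E15.5 difference was 4.02 ± 0.10 (SE, adjusted p = 7.5e-15). Kcna2, its partner, had 6.27, 6.33 and 6.17 CPM at E15.5 and 8.78, 7.62 and 8.71 at P0.5. At P10 Kcna2 had 46.6, 39.6 and 43.3, and in adults 42.5, 33.9 and 37.4, with a difference of 2.42 ± 0.09 (SE, adjusted p = 4.9e-13). Its libraries, too, were all higher at P10 and in adults. Kcnab2, the cytoplasmic beta subunit found with them, had 12.6, 10.8 and 11.5 CPM at E15.5 and 28.9, 28.3 and 28.9 at P0.5. At P10 Kcnab2 had 62.7, 52.6 and 60.1, and in adults 96.4, 79.6 and 85.0, with no overlap between any 2 ages (2.80 ± 0.08 SE, adjusted p = 5.4e-14). Kcnab1 and Kcnab3, the other beta subunits, had means of 20.9 CPM at E15.5, 27.9 at P0.5, 47.0 at P10 and 74.1 in adults and of 3.78 CPM at E15.5, 4.16 at P0.5, 18.4 at P10 and 26.7 in adults, and were higher in adults by 1.79 and 2.54. Kcna6, a pore subunit of the same family, was lower, with 29.0, 33.9 and 29.5 CPM at E15.5 and 22.5, 22.6 and 22.6 at P0.5. At P10 Kcna6 had 23.6, 22.8 and 22.2, and in adults 17.9, 15.3 and 17.3, a difference of -0.83 ± 0.07 (SE, adjusted p = 2.9e-08). Markers of myelinating cells moved in the same libraries. The 6 oligodendrocyte markers summed to 54.6 to 78.2 CPM at E15.5, 735 to 801 at P0.5, 13552 to 18059 at P10 and 2109.7 to 3579 in adults. None of the 6 was at 0 at any age, and their part in these differences was not tested.

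Pore subunits of the Kcnc kind open and close fast enough to sustain high firing rates. Kcnc1 had 20.3, 19.8 and 20.3 CPM at E15.5 and 15.3, 14.0 and 14.9 at P0.5. At P10 Kcnc1 had 53.0, 45.8 and 49.8, and in adults 46.7, 38.4 and 40.6. The P10 and adult libraries lay above all earlier ones, and the adult minus E15.5 difference was 1.02 ± 0.08 (SE, adjusted p = 3.9e-09). Kcnc4, the member with A-type inactivation, peaked earlier, with 32.6, 25.0 and 31.0 CPM at E15.5 and 57.4, 54.7 and 55.9 at P0.5. At P10 Kcnc4 had 50.4, 45.1 and 46.8, and in adults 37.8, 33.7 and 39.8. Its P0.5 libraries were the highest, and the adult minus E15.5 difference was 0.33 ± 0.09 (SE, adjusted p = 0.003). Kcnc2 had means of 7.60 CPM at E15.5, 7.69 at P0.5, 7.24 at P10 and 4.68 in adults and was lower (-0.60 ± 0.08 SE, adjusted p = 2.4e-06).

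The A-type channel, a transient current that delays firing and is built from Kcnd pore subunits with Kcnip calcium-binding partners, did not move as one. Of the 7, 4 were lower in adults (57.1%, near the 58.1% of all genes called lower), Kcnip4 was higher and Kcnd1 and Kcnip3 were not called. With the intermediate libraries left out, 4 were lower and 2 higher. Kcnd2 had 37.0, 41.2 and 42.2 CPM at E15.5 and 31.7, 27.7 and 32.0 at P0.5. At P10 Kcnd2 had 18.4, 18.6 and 18.6, and in adults 9.13, 5.24 and 6.30. It was lower at every step with no overlap between neighbouring ages (-2.41 ± 0.13 SE, adjusted p = 4.5e-10). Its P0.5 minus E15.5 call alone was lost under RLE scaling, in edgeR, without the intermediate libraries (adjusted p = 0.11) and without E15.5 Cre-positive spinal cord replicates 2 or 3 or P0.5 Cre-positive spinal cord replicate 2 (adjusted p = 0.055 to 0.069). Kcnd3 had 5.84, 7.22 and 6.10 CPM at E15.5 and 12.5, 10.7 and 11.8 at P0.5. At P10 Kcnd3 had 2.56, 2.97 and 2.55, and in adults 1.27, 1.01 and 1.09. It was thus highest at P0.5 and lowest in adults (-1.79 ± 0.09 SE, adjusted p = 3.7e-11). The partner Kcnip1 followed the same course with 151, 116 and 131 CPM at E15.5 and 217, 204 and 215 at P0.5. At P10 Kcnip1 had 87.0, 84.9 and 90.00, and in adults 48.1, 47.8 and 49.8, a difference of -1.42 ± 0.08 (SE, adjusted p = 6.3e-11). Its gene overlaps Kcnmb1, and no strand setting of the counting is stated, so reads in the shared stretch could belong to either gene. Kcnmb1 itself was counted at cord means of 0.0197 CPM in adults to 0.11 at P10. Kcnip2 had 11.6, 8.35 and 9.31 CPM at E15.5 and 17.0, 20.1 and 18.2 at P0.5. At P10 Kcnip2 had 8.54, 8.44 and 7.65, and in adults 3.29, 2.38 and 3.32, again with P0.5 highest (-1.43 ± 0.12 SE, adjusted p = 9.2e-09). Kcnip4, another partner, differed. Its means were 15.7 CPM at E15.5, 33.0 at P0.5, 27.2 at P10 and 32.5 in adults, and it was higher in adults by 1.02 ± 0.11 (SE, adjusted p = 5e-07). Kcnip3, also known as a transcriptional repressor, rose by 1.03 ± 0.12 at P0.5 and fell by 1.04 between P10 and adults, and its adult minus E15.5 difference of 0.16 was not called.

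The M-type channel slowly damps repetitive firing, and Kcnq3 encodes a subunit of it. Kcnq3 had 13.5, 13.3 and 13.3 CPM at E15.5 and 11.1, 8.85 and 10.4 at P0.5. At P10 Kcnq3 had 7.12, 6.49 and 6.77, and in adults 5.03, 4.10 and 4.55, so it was lower at every step without overlap (-1.37 ± 0.09 SE, adjusted p = 3.8e-10). Of the ERG subunits, which conduct on repolarisation, Kcnh2 had means of 17.1 CPM at E15.5, 21.5 at P0.5, 28.5 at P10 and 34.0 in adults, higher at each step (0.96 ± 0.08 SE, adjusted p = 1.6e-08). Its P0.5 minus E15.5 and adult minus P10 calls were lost without the intermediate libraries (adjusted p = 0.067 and 0.15), and the last also without P10 replicate 2 (adjusted p = 0.064). Kcnh6, of the same subfamily, had 59.2, 68.2 and 62.9 CPM at E15.5 and 33.0, 39.7 and 36.7 at P0.5. At P10 Kcnh6 had 189, 230.0 and 207, and in adults 172, 186 and 180.0. The 2 older ages lay above the 2 younger ones, with a P10 minus P0.5 difference of 2.48 ± 0.08 (SE, adjusted p = 6.8e-13). Its annotated end lies 1276 bases from the start of Dcaf7, whose cord means of 42.3, 83.7, 28.2 and 8.60 CPM from E15.5 to adults were highest at P0.5, where Kcnh6 was lowest. Whether reads of the 2 genes mix was not tested.

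Among the inward rectifiers 7 of the 8 tested members were higher in adults. Kcnj14 (chromosome 7, bases 45816467 to 45824747 of GRCm38.p6), a strong rectifier found in motor nuclei, had 3.55, 3.45 and 3.70 CPM at E15.5 and 5.90, 4.47 and 4.78 at P0.5. At P10 Kcnj14 had 85.5, 65.6 and 73.1, and in adults 132, 134 and 133. Each age lay above the one before without overlap, and the adult minus E15.5 difference was 4.87 ± 0.10 (SE, adjusted p = 9.6e-16), or adjusted p = 1.4e-12 without the intermediate libraries. Kcnj12, a classical strong rectifier, had means of 6.38 CPM at E15.5, 3.98 at P0.5, 13.2 at P10 and 17.6 in adults and was higher by 1.34 ± 0.10 (SE, adjusted p = 2.9e-09). Of the G-protein-gated rectifiers, through which transmitters slow firing, Kcnj3 had means of 5.45 CPM at E15.5, 5.82 at P0.5, 12.6 at P10 and 17.3 in adults and Kcnj9 of 1.96 CPM at E15.5, 1.53 at P0.5, 4.26 at P10 and 10.02 in adults. They were higher in adults by 1.5 and 1.89, and Kcnj9 was the member with the largest increase between P10 and adults (1.07 ± 0.10 SE, adjusted p = 1.8e-07). Kcnj2, another strong rectifier, stayed under 1 CPM in cord, with means of 0.375 CPM at E15.5, 0.326 at P0.5, 0.714 at P10 and 0.724 in adults.

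Kcnj10 and Kcnj16 form the potassium-buffering channel of glia. Kcnj10 had 4.79, 3.25 and 3.97 CPM at E15.5 and 7.23, 8.03 and 8.02 at P0.5. At P10 Kcnj10 had 33.6, 33.4 and 33.1, and in adults 32.8, 20.9 and 27.6, and both older ages lay above both younger ones (2.48 ± 0.14 SE, adjusted p = 3.1e-10). Kcnj16 had means of 1.51 CPM at E15.5, 5.09 at P0.5, 3.48 at P10 and 2.92 in adults, highest at P0.5, with an adult minus E15.5 difference of 0.64 ± 0.13 (SE, adjusted p = 0.00021). The 6 astrocyte markers summed to 77.3 to 122 CPM at E15.5, 223 to 233 at P0.5, 390.3 to 409 at P10 and 170.4 to 234 in adults, none of them at 0. Like Kcnj10 they had their highest mean at P10. From P10 to adults the marker sums fell without overlap, while the Kcnj10 difference was not called. The part of these markers in the Kcnj10 and Kcnj16 values was not tested. The pores of the ATP-sensitive channel parted. Kcnj8, known from vessel walls, had means of 2.46 CPM at E15.5, 2.33 at P0.5, 1.69 at P10 and 0.598 in adults and was lower (-1.10 ± 0.16 SE, adjusted p = 1e-05). Kcnj11, the neuronal and muscle form, had 7.44 CPM at E15.5, 5.30 at P0.5, 8.43 at P10 and 9.66 in adults and was higher (0.34 ± 0.08 SE, adjusted p = 0.0014). Pericyte and smooth muscle markers, 6 in all, summed to 30.0 to 31.7 CPM at E15.5, 15.53 to 19.8 at P0.5, 33.0 to 34.4 at P10 and 9.66 to 13.7 in adults, and their part in the Kcnj8 value was not tested. In a bulk sample fewer cells of a type and less RNA per cell cannot be told apart.

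Among the leak channels, Kcnk1 showed the plainest course, with 14.9, 12.1 and 15.1 CPM at E15.5 and 24.4, 26.2 and 28.2 at P0.5. At P10 Kcnk1 had 46.9, 43.0 and 41.9, and in adults 60.8, 56.6 and 55.4, so it was higher at each step without overlap (1.97 ± 0.08 SE, adjusted p = 4.1e-12). Kcnk9, an acid-sensitive leak channel, was higher in adults, with 0.343, 0.455 and 0.328 CPM at E15.5 and 1.64, 1.30 and 1.07 at P0.5. At P10 Kcnk9 had 2.63, 2.72 and 1.85, and in adults 3.95, 3.15 and 3.37 (1.71 ± 0.12 SE, adjusted p = 1.4e-09). Every adult library lay above every younger one. Its acid-sensitive relative Kcnk3, the leak channel best known from motor neurons, had 74.6, 79.2 and 76.9 CPM at E15.5 and 101, 93.9 and 96.1 at P0.5. At P10 Kcnk3 had 115, 99.5 and 110.0, and in adults 77.6, 73.9 and 75.4. The adult and E15.5 libraries overlapped, and the difference of -0.02 ± 0.06 was not called (adjusted p = 0.73) but became 0.18 to 0.42 and was called higher under other scalings. Kcnk2, a stretch-sensitive leak channel, was higher in adults by 0.58 ± 0.12 (SE, adjusted p = 0.00025), and so were Kcnk12 (1.01) and Kcnk13 (0.68). Kcnk10, a relative of Kcnk2, was lower (-0.96 ± 0.09 SE, adjusted p = 5.7e-08), as was Kcnk4 (-1.11).

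Of the 5 tested calcium- and sodium-activated pore subunits, 2 were called higher and 2 lower. Kcnma1, the pore of the large-conductance (BK) channel, had 20.02, 22.5 and 21.9 CPM at E15.5 and 14.6, 11.4 and 13.7 at P0.5. At P10 Kcnma1 had 18.2, 14.9 and 16.6, and in adults 14.6, 12.3 and 12.7, a difference of -0.67 ± 0.10 (SE, adjusted p = 9.2e-06). Its beta subunits parted. Kcnmb2, which makes the channel inactivate, had 5.64, 5.82 and 4.86 CPM at E15.5 and 2.82, 2.83 and 2.86 at P0.5. At P10 Kcnmb2 had 1.48, 1.34 and 1.52, and in adults 1.14, 0.442 and 0.507, a difference of -1.95 ± 0.12 (SE, adjusted p = 4.6e-10). Each age lay below the one before. The neuronal form Kcnmb4 had 74.9, 75.7 and 72.5 CPM at E15.5 and 60.9, 65.3 and 64.5 at P0.5. At P10 Kcnmb4 had 44.9, 44.0 and 46.2, and in adults 83.6, 80.9 and 77.1. Kcnmb4 was thus lowest at P10 and highest in adults, and its adult minus P10 difference was 0.82 ± 0.06 (SE, adjusted p = 5.3e-09). Its adult minus E15.5 difference of 0.11 was called only under other scalings (0.32 to 0.56). The small-conductance subunits, which carry the afterhyperpolarisation of motor neurons, had small differences: Kcnn1 0.21 ± 0.08 (SE, adjusted p = 0.024) and Kcnn2 0.23 ± 0.09 (SE, adjusted p = 0.029), with overlapping libraries for Kcnn2. The Kcnn1 call was lost without the intermediate libraries (adjusted p = 0.32) and without E15.5 Cre-positive spinal cord replicates 2 or 3 or adult Cre-positive spinal cord replicates 1 or 3 (adjusted p = 0.054 to 0.1), and the Kcnn2 call without E15.5 Cre-positive spinal cord replicates 1 or 2 or adult Cre-positive spinal cord replicates 1 or 2 (adjusted p = 0.052 to 0.11). Kcnt1, a sodium-activated subunit, had means of 9.28 CPM at E15.5, 8.44 at P0.5, 12.8 at P10 and 10.4 in adults, and its difference of 0.14 was called only without adult replicate 2 (adjusted p = 0.0088) or under other scalings (0.55 to 0.61). Kcnu1, a pore subunit known from sperm, was low, with means of 1.29 CPM at E15.5, 1.81 at P0.5, 0.929 at P10 and 0.847 in adults (-0.31).

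**Figure D3:**
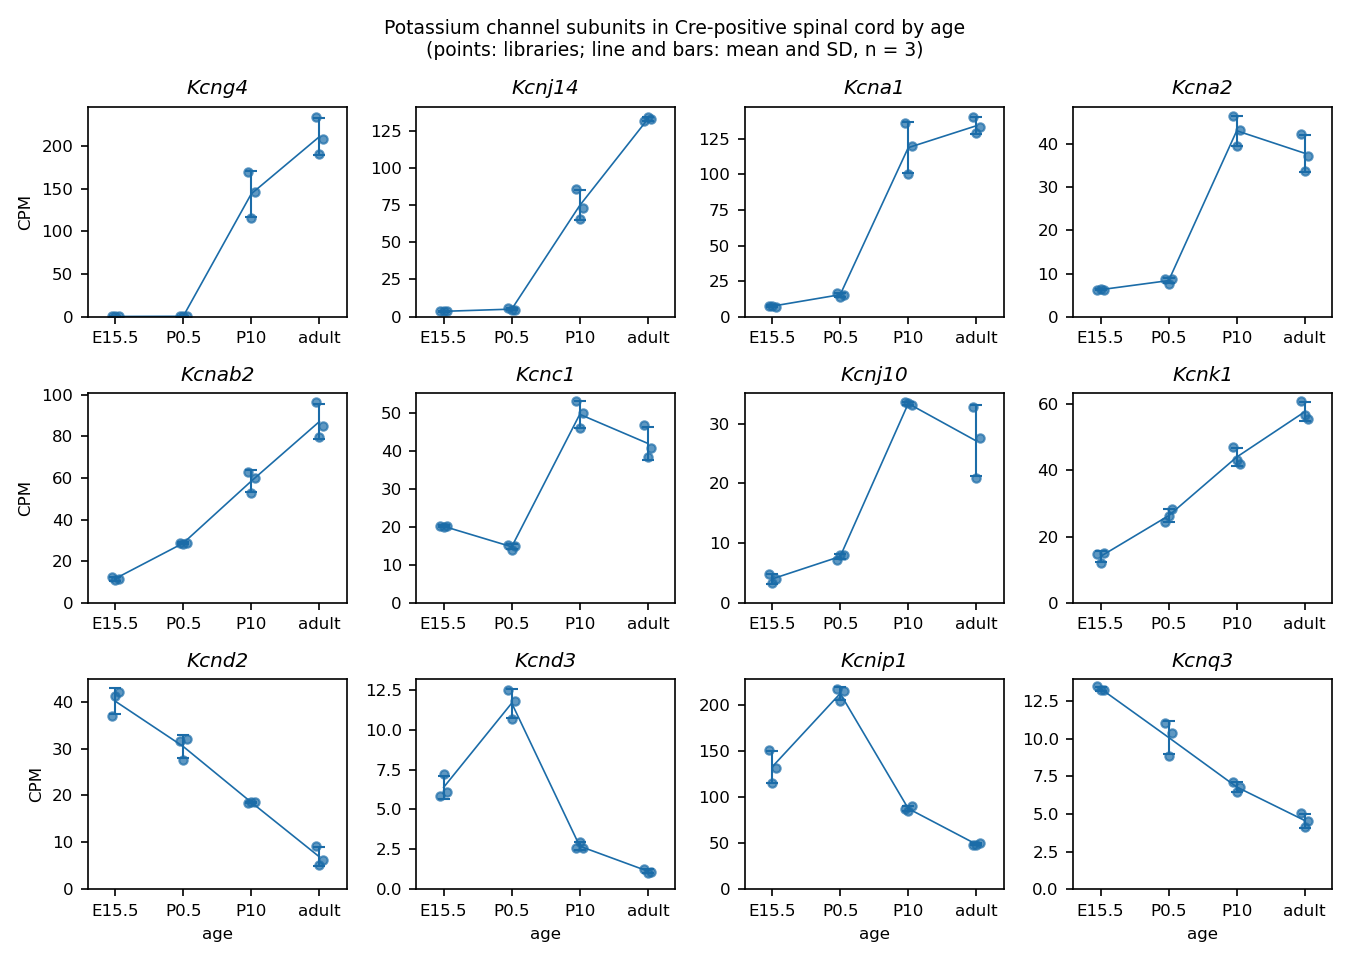
CPM of 12 subunits in Cre-positive spinal cord against age, 1 panel per gene, each with its own axis from 0. Points are the 3 libraries of a group, and lines and bars are mean and SD. Kcng4, Kcnj14, Kcna1, Kcna2, Kcnab2, Kcnc1, Kcnj10 and Kcnk1 end higher in adults than at E15.5, while Kcnd2 and Kcnq3 are lower at each step and Kcnd3 and Kcnip1 peak at P0.5.

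The timing of the changes differed between genes. Between E15.5 and P0.5, 23 members were higher and 23 lower at P0.5 (71.9% called, against 72.3% of all genes), or 28 and 17 under RLE scaling and 28 and 16 in edgeR. Between P0.5 and P10, 28 were higher and 22 lower at P10 (78.1% against 78.7%, of which 35.2% higher and 43.5% lower). Between P10 and adults, 15 were higher and 26 lower in adults (64.1% against 67.9%), and this split turned to 25 and 17 under quantile, 23 and 20 under RLE and 23 and 21 under TMM scaling. At each step the called share was near that of all genes. Neighbouring ages did not overlap for 49, 52 and 44 members at the 3 steps in turn, against 75.7%, 81.2% and 72.8% of all genes. Without the intermediate libraries 33 members (17 higher, 16 lower), 42 members (26 higher, 16 lower) and 30 members (11 higher, 19 lower) were called at the 3 steps in turn, against 56.6%, 66.7% and 48.8% of all genes.

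At P0.5 the largest increases were in Kcnj16 (1.28 ± 0.13), Kcnab2 (1.24 ± 0.08), Kcnip4 (1.04 ± 0.11), Kcnip3, Kcna1 (0.98 ± 0.10) and Kcnc4 (0.91 ± 0.09). The largest decreases were in Kcnh6 (-0.78), Kcnmb2 (-0.74), Kcnh8 (-0.73), Kcnv1 (-0.70), Kcnma1 (-0.67) and Kcna4 (-0.66). Kcnh8 reached 1 CPM in E15.5 cord libraries alone. It thus passed the filter of the cord fit only through the age where it was high, and its calls against E15.5 are given no weight. The step to P10 held large changes: Kcng4 was higher by 6.67 ± 0.11, Kcnj14 by 3.65 ± 0.10 and Kcna1 by 2.86 ± 0.10. On the lower side, the differences were -1.78 ± 0.09 in Kcnd3, -1.27 ± 0.08 in Kcnip1, -1.08 ± 0.12 in Kcnip2 and -0.82 ± 0.11 in the silent subunit Kcns1. Between P10 and adults the increases after Kcnj9 included Kcnmb4, Kcnj14 (0.83), Kcnab1 (0.65), Kcnab2 (0.56) and Kcng4 (0.56). The decreases included Kcns2 (-1.5), Kcnd2 (-1.34), Kcnip2 (-1.21) and the leak channel Kcnk4 (-0.83). 6 members were called higher at all 3 steps, namely Kcnab1, Kcnab2, Kcnh2, Kcnj14, Kcnk1 and Kcnk9. Another 4 were lower at all 3, namely Kcnd2, Kcng2, Kcnmb2 and Kcnq3. A further 5 were higher at P0.5 and then lower at both later steps, namely Kcnc4, Kcnd3, Kcnip1, Kcnip2 and Kcnk4, of which Kcnd3, Kcnip1 and Kcnip2 belong to the A-type channel. How many of all genes followed each of these 3 patterns was not counted, so they list genes and show no trait of the members. Of the calls behind these 3 patterns, those of Kcnh2 at P0.5 and in adults, of Kcnk9 in adults, of Kcnd2 at P0.5 and of Kcnc4 at P10 were lost without the intermediate libraries (adjusted p = 0.067, 0.15, 0.11, 0.11 and 0.15). The last was also lost under each other scaling and without P0.5 Cre-positive spinal cord replicates 1 or 3 or P10 Cre-positive spinal cord replicates 2 or 3 (adjusted p = 0.054 to 0.082), and the adult call of Kcnc4 was lost under RLE scaling and in edgeR (adjusted p = 0.084 and 0.091). By mean level, 17 tested members were highest at E15.5, 14 at P0.5, 13 at P10 and 20 in adults. The same count over all genes was not made. The low remaining members of the cord fit were Kcnf1 (-1.26), Kcne3 (-1.21), Kcna5 (-0.71), Kcna3 (-0.34) and Kcnh1 (0.24), each with a highest group mean under 5 CPM.

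Genes that work with these channels were followed in the same cord fit. Of 17 tested partner proteins (auxiliary subunits, sulfonylurea receptors and scaffolds), 4 were higher and 10 lower in adult than in E15.5 cord, with a median of -0.28 against -0.38 for all genes. These were 23.5% and 58.8%, near the 26.3% and 58.1% of all genes. Sptbn4, a spectrin of nodes and axon initial segments, was higher by 1.97 ± 0.07 (SE, adjusted p = 6.6e-13), and Dpp6, an auxiliary subunit of the A-type channel, was lower, with a difference of -0.81 ± 0.07 (SE, adjusted p = 1.3e-08). Of 9 tested sodium channel genes, 5 were higher, led by the beta subunit Scn4b (4.98 ± 0.11 SE, adjusted p = 3.9e-15) and the pore Scn1a (2.11 ± 0.10 SE, adjusted p = 1.1e-11). A further 4 were lower, led by Scn3b (-4.34 ± 0.10 SE, adjusted p = 3.9e-15) and Scn3a (-3.44 ± 0.09 SE, adjusted p = 9.8e-15). Of the 4 HCN channels, which open on hyperpolarisation, 2 were higher and 2 lower. Of 10 tested genes of the sodium-potassium pump, 4 were higher and 5 lower. The share of all genes given above stands beside these 3 short lists as well, 26.3% higher and 58.1% lower. Leaving out the intermediate libraries gave higher and lower calls for 4 and 6 of 15 tested partner proteins, 5 and 4 of 9 sodium channel genes, 1 and 2 of 4 HCN channels and 4 and 5 of 10 pump genes.

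In the diaphragm the comparison of adult with E15.5 libraries was made within each genotype. In Cre-positive diaphragm 7 of 42 tested members were higher and 12 lower in adults, 45.2% against 47.1% of all genes tested (10.9% higher and 36.2% lower). In Cre-negative diaphragm 12 were higher and 11 lower, 54.8% against 51.2% (16.3% higher and 34.9% lower), so the called share was near the background in both. Adult and E15.5 libraries did not overlap for 29 members of Cre-positive diaphragm, against 65.2% of all genes, and for 25 of Cre-negative diaphragm, against 53.9%. Quantile normalization changed the split to 15 and 8 for Cre-positive libraries and to 13 and 6 for Cre-negative ones, and RLE scaling to 11 and 11 in Cre-positive diaphragm. Without the intermediate libraries 9 members (3 higher, 6 lower) were called in Cre-positive and 11 members (6 higher, 5 lower) in Cre-negative diaphragm, beside 19.5% and 23.7% of all genes. 6 members were called higher in both genotypes (Kcna7, Kcnc1, Kcng4, Kcnj2, Kcnj12 and Kcnn1) and 6 lower in both (Kcna6, Kcnh2, Kcnk3, Kcnk5, Kcnmb4 and Kcnn4), and none was called in opposite directions. Of all genes, 8.24% were called higher and 25.1% lower in both. Kcnk5 reached 1 CPM in E15.5 diaphragm libraries alone. It thus passed the filter only through the age where it was high, and its calls are given no weight. When the intermediate libraries were left out, 3 members were higher in both (Kcna7, Kcng4 and Kcnn1) and 3 lower (Kcna6, Kcnk3 and Kcnn4), beside 3.49% and 10.2% of all genes.

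Kcng4, Kcna7 and Kcnn1 had the largest increases in both genotypes, and their promoter windows are shown for that reason, 250 bases before to 50 after each start site, 5′ to 3′ on the gene's strand, from RefSeq (GRCm38.p6). Capitals mark each match to CANNTG, the motif bound by basic helix-loop-helix factors such as those of muscle, which reads the same on both strands:
Kcna7, chr7:45405710-45406009 (plus strand): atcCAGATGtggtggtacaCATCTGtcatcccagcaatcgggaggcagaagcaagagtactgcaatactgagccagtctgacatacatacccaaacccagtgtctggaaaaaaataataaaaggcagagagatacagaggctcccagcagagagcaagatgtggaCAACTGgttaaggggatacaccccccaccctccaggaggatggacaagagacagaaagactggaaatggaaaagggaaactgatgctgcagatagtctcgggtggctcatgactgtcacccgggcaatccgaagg
Kcng4, chr8:119635631-119635930 (minus strand): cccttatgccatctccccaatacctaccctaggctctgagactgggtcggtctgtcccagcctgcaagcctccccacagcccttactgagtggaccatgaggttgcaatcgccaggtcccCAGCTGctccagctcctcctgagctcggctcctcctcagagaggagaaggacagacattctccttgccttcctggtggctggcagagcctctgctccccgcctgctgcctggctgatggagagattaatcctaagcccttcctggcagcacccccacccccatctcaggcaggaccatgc
Kcnn1, chr8:70856959-70857258 (minus strand): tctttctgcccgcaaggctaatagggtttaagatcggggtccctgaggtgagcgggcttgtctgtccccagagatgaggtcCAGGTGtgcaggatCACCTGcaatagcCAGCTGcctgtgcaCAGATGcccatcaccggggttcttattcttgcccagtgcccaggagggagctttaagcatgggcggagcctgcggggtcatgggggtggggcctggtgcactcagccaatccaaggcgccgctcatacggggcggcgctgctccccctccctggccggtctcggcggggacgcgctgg
Kcnn1, chr8:70863209-70863508 (minus strand): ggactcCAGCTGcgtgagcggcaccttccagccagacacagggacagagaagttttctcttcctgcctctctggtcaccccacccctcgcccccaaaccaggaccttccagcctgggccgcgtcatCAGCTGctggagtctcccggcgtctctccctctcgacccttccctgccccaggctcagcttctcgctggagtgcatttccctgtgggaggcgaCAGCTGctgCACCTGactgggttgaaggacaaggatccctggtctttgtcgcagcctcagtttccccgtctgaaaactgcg
The Kcna7 window holds 3 matches, the Kcng4 window 1 and each of the 2 Kcnn1 windows 4. The motif is short and common: 72.3% of all 32851 windows of this length hold at least 1 match, 17.6% hold 3 or more and 6.5% hold 4 or more, and 72.5% of the 91 windows of the 66 subunit genes listed there hold at least 1, so the matches are a description only.

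In Cre-positive diaphragm Kcng4, the silent subunit that also led the cord, had 0.0787, 0.084 and 0.111 CPM at E15.5 and 0.243, 0 and 0.253 at P0.5. At P10 Kcng4 had 5.88, 7.57 and 6.96 there, and in adults 10.4, 16.6 and 13.9. Every library stayed under 1 CPM at the first 2 ages. In Cre-negative diaphragm Kcng4 had 0 in all 3 libraries at E15.5 and 0 in all 3 libraries at P0.5. At P10 Kcng4 had 5.36, 6.22 and 5.58 there, and in adults 12.7, 19.2 and 8.65. In both genotypes the P10 libraries lay above the younger ones and the adult libraries above P10. The adult minus E15.5 difference was 3.72 ± 0.28 (SE, adjusted p = 6.3e-10) for Cre-positive libraries and 3.79 ± 0.28 (SE, adjusted p = 4.1e-10) for Cre-negative ones. In Cre-negative diaphragm the adult mean of Kcng4 was at least 363-fold higher against a floor of 3 reads per library, which covers counting error only. The 2 genotypes were not called different at any age. In Cre-positive diaphragm Kcna7, a Kv pore subunit known from skeletal muscle and heart, had 0.191, 0.241 and 0.4 CPM at E15.5 and 4.65, 4.52 and 5.28 at P0.5. At P10 Kcna7 had 4.29, 2.40 and 3.96 there, and in adults 15.45, 14.4 and 15.8. The E15.5 libraries were the lowest and the adult ones the highest. In Cre-negative diaphragm Kcna7 had 0, 0.0125 and 0 CPM at E15.5 and 1.31, 2.59 and 2.44 at P0.5. At P10 Kcna7 had 3.35, 6.14 and 4.89 there, and in adults 12.6, 15.8 and 9.87. Adult libraries lay above every younger age in both genotypes. Its adult minus E15.5 difference was 3.67 ± 0.29 (SE, adjusted p = 1.2e-09) for Cre-positive libraries and 3.75 ± 0.29 (SE, adjusted p = 7.6e-10) for Cre-negative ones.

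In Cre-positive diaphragm Kcnn1, a small-conductance calcium-activated subunit, had 1.35, 0 and 1.19 CPM at E15.5 and 1.55, 1.09 and 1.32 at P0.5. At P10 Kcnn1 had 2.33, 2.14 and 2.17 there, and in adults 24.9, 11.7 and 14.0. The adult libraries exceeded all younger ones. In Cre-negative diaphragm Kcnn1 had 0 in all 3 libraries at E15.5 and 0.352, 2.76 and 3.18 at P0.5. At P10 Kcnn1 had 0.74, 2.64 and 1.51 there, and in adults 9.95, 18.7 and 2.36. The adult Cre-negative libraries spread from 2.36 to 18.7 CPM and overlapped those of P0.5 and P10. The adult minus E15.5 differences were 3.30 ± 0.53 (SE, adjusted p = 2.4e-05) for Cre-positive libraries and 3.17 ± 0.53 (SE, adjusted p = 3.3e-05) for Cre-negative ones, and in Cre-negative diaphragm the adult mean was at least 278-fold higher against the same floor. Without adult Cre-negative replicate 2, the highest library, that bound was 166-fold. Without the intermediate libraries Kcng4, Kcna7 and Kcnn1 were still called in Cre-positive diaphragm (adjusted p = 0.00042, 0.00047 and 0.0067). The strong rectifiers Kcnj2 and Kcnj12, which hold the resting potential of muscle fibres, were higher as well. In Cre-positive diaphragm Kcnj2 had 0.236, 0.199 and 0.278 CPM at E15.5 and 0.497, 0 and 0.465 at P0.5. At P10 Kcnj2 had 3.75, 1.87 and 2.65 there, and in adults 0.531, 2.34 and 1.93. The P10 and adult libraries overlapped. Cre-negative libraries had 0.0366, 0.324 and 0.45 CPM at E15.5 and 0, 0.655 and 0.727 at P0.5. At P10 Kcnj2 had 5.61, 1.87 and 3.57 there, and in adults 4.09, 3.4 and 4.14. Its adult libraries lay above those of E15.5 in both genotypes, with differences of 0.99 ± 0.35 (SE, adjusted p = 0.024) for Cre-positive libraries and 1.95 ± 0.35 (SE, adjusted p = 8e-05) for Cre-negative ones. The Cre-positive Kcnj2 call was lost without the intermediate libraries (adjusted p = 0.36), in edgeR (adjusted p = 0.056) and without E15.5 Cre-positive diaphragm replicates 1, 2 or 3 or adult Cre-positive diaphragm replicates 2 or 3 (adjusted p = 0.053 to 0.11). Kcnj12 was higher by 0.90 in Cre-positive libraries and by 0.98 in Cre-negative ones, and both calls were lost without the intermediate libraries (adjusted p = 0.31 and 0.23). The first call was also lost without E15.5 Cre-positive diaphragm replicates 2 or 3 or adult Cre-positive diaphragm replicates 1, 2 or 3 (adjusted p = 0.057 to 0.09). The second was lost without E15.5 Cre-negative diaphragm replicate 1 or adult Cre-negative diaphragm replicate 3 (adjusted p = 0.066 to 0.083). Skeletal muscle markers summed to 20609.7 to 24124 CPM at E15.5, 57399.8 to 59753 at P0.5, 52617 to 57832 at P10 and 58553 to 67038 in adults in Cre-positive diaphragm. In Cre-negative diaphragm they summed to 23348 to 28841 CPM at E15.5, 75049 to 89305 at P0.5, 59157 to 59501 at P10 and 56156 to 65504 in adults. At P0.5 Kcng4 and Kcnj2 were under 1 CPM in every diaphragm library. Of the 8 genes only Myh3, the embryonic myosin, was at 0, in adult Cre-negative diaphragm, and their part in these increases was not tested.

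The decreases in diaphragm were led by 2 channels whose E15.5 libraries stood above all others. In Cre-positive diaphragm Kcnk3, an acid-sensitive leak channel, had 15.4, 24.2 and 17.4 CPM at E15.5 and 0.558, 0.756 and 0.556 at P0.5. At P10 Kcnk3 had 0.773, 2.58 and 1.59 there, and in adults 0.0743, 0.178 and 0.049. No later library reached the E15.5 level. In Cre-negative diaphragm Kcnk3 had 21.0, 20.6 and 20.9 CPM at E15.5 and 0 in all 3 libraries at P0.5. At P10 Kcnk3 had 0.228, 2.75 and 1.46 there, and in adults 0.0112, 0.0228 and 0.0552. In both genotypes the E15.5 libraries lay above all later ones. Its adult minus E15.5 difference was -4.16 ± 0.34 (SE, adjusted p = 1.8e-09) for Cre-positive libraries and -4.41 ± 0.34 (SE, adjusted p = 6.7e-10) for Cre-negative ones. In Cre-positive diaphragm Kcnn4, the intermediate-conductance calcium-activated channel known from red blood cells and epithelia, had 14.8, 22.9 and 16.5 CPM at E15.5 and 0.791, 5.12 and 0.657 at P0.5. At P10 Kcnn4 had 0.224, 0 and 0.0308 there, and in adults 0, 1.30 and 0.372. Its E15.5 libraries, too, were the highest. In Cre-negative diaphragm Kcnn4 had 33.2, 21.4 and 18.2 CPM at E15.5 and 0.352, 0 and 0.026 at P0.5. At P10 Kcnn4 had 0.831, 0 and 0.817 there, and in adults 0, 0.0343 and 0. The differences were -3.68 ± 0.42 (SE, adjusted p = 3.6e-07) for Cre-positive libraries and -4.60 ± 0.42 (SE, adjusted p = 1.2e-08) for Cre-negative ones, and edgeR did not call the gene in Cre-positive diaphragm (adjusted p = 0.062). The 6 erythroid markers summed to 129279.9 to 215918 CPM at E15.5, 7275 to 12927 at P0.5, 27281 to 33025 at P10 and 11375 to 22625 in adults in Cre-positive diaphragm, and to 117783 to 123404 CPM at E15.5, 5864 to 5982 at P0.5, 25817 to 39675 at P10 and 17415 to 20691 in adults in Cre-negative diaphragm. The 6 hepatocyte markers summed to 8507 to 10742 CPM at E15.5, 972 to 8006 at P0.5, 134 to 491 at P10 and 70.0 to 155 in adults in Cre-positive libraries, and to 10855 to 11566 CPM at E15.5, 65.2 to 92.7 at P0.5, 11.9 to 168 at P10 and 4.06 to 9.08 in adults in Cre-negative ones. Both lists were highest at E15.5. The part of both lists in the E15.5 levels was not tested. Kcnmb4, the BK beta subunit, had 0, 0.589 and 0.392 CPM in adult and 5.95, 9.36 and 7.25 in E15.5 Cre-positive diaphragm (-2.69 ± 0.46 SE, adjusted p = 5.4e-05), a call that edgeR did not make (adjusted p = 0.074). In Cre-negative diaphragm it had 0 in all 3 adult libraries and 0, 3.03 and 4.55 at E15.5, a call lost without the intermediate libraries (adjusted p = 0.25) and without E15.5 Cre-negative diaphragm replicates 2 or 3 (adjusted p = 0.056 to 0.082).

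Kcna6, a Kv pore subunit, was lower in adults, with a difference of -1.66 ± 0.25 (SE, adjusted p = 1.1e-05) for Cre-positive libraries and -1.79 ± 0.25 (SE, adjusted p = 3.4e-06) for Cre-negative ones. Kcnh2, an ERG subunit, was lower, with a difference of -1.36 ± 0.47 (SE, adjusted p = 0.02) for Cre-positive libraries and -2.95 ± 0.47 (SE, adjusted p = 1.9e-05) for Cre-negative ones. The Cre-positive call was lost without the intermediate libraries (adjusted p = 0.31), under each other scaling and the edgeR test, and without E15.5 Cre-positive diaphragm replicates 1 or 3 or adult Cre-positive diaphragm replicate 3 (adjusted p = 0.063 to 0.075). In Cre-positive diaphragm Kcnh6, its relative, had 113, 104 and 115 CPM at E15.5 and 64.4, 110.2 and 64.7 at P0.5. At P10 Kcnh6 had 58.5, 63.5 and 55.4 there, and in adults 28.0, 16.9 and 21.6, and the adult libraries were the lowest (-2.30 ± 0.33 SE, adjusted p = 5.7e-06). In Cre-negative diaphragm Kcnh6 had 152, 161 and 165 CPM at E15.5 and 136, 88.4 and 94.7 at P0.5. At P10 Kcnh6 had 85.5, 90.9 and 90.1 there, and in adults 111, 42.2 and 166. Adult libraries spread over the range of all ages, and the difference of -0.78 ± 0.33 was not called (adjusted p = 0.051). Kcnk1 was close to 0 in adult Cre-positive diaphragm. It had 0, 0.0374 and 0 CPM in adult and 4.46, 3.16 and 4.97 in E15.5 Cre-positive diaphragm (-2.34 ± 0.29 SE, adjusted p = 1e-06). Members called in 1 genotype alone are not shown to differ between the genotypes, since that difference was not tested.

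**Figure D4:**
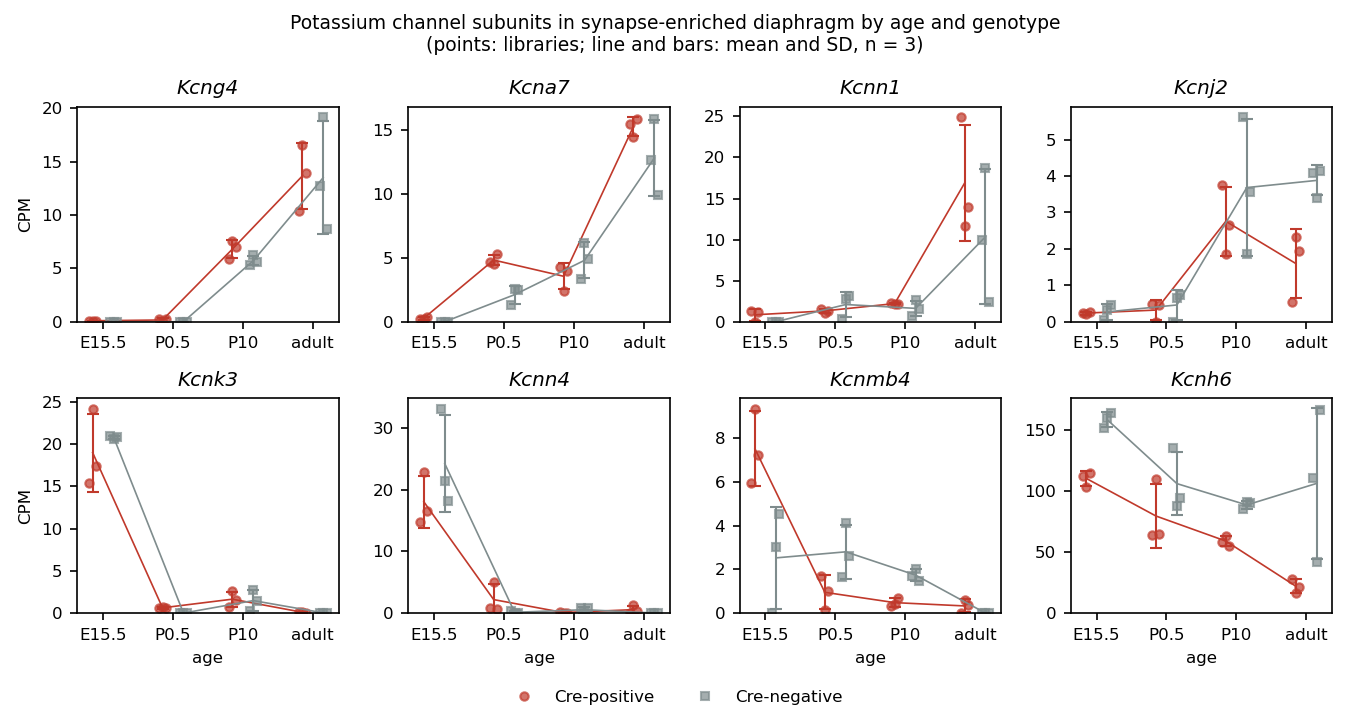
CPM of 8 subunits in synapse-enriched diaphragm against age, 1 panel per gene, each with its own axis from 0. Circles are Cre-positive and squares Cre-negative libraries, and lines and bars are mean and SD (n = 3). Kcng4, Kcna7 and Kcnn1 are highest in adults in both genotypes, Kcnk3 and Kcnn4 are high at E15.5 only, and Kcnh6 averages 22.2 CPM in Cre-positive and 107 CPM in Cre-negative adults.

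The comparison of Cre-positive with Cre-negative diaphragm asks what the purification recovered above its background, which at the synapse would be RNA in motor axons or other Cre-expressing cells. Few subunits differed, and no member was called at any of the 4 ages once the intermediate libraries were left out (limma, adjusted p). In that setting 3, 8, 1 and 2 members had an unadjusted p under 0.05 at E15.5, P0.5, P10 and in adults. Of all genes, 0.0527%, 0.813%, 0% and 0.105% were called at those ages. With all libraries, 3 members were higher and 3 lower in Cre-positive than in Cre-negative libraries at E15.5, 14.3% of 42 tested, against 11% of all genes (4.88% higher and 6.11% lower). At P0.5 they were 7 and 4, 26.2% against 27.7% (12.1% higher and 15.7% lower). At P10 they were 0 and 2, 4.76% against 1.45% (0.419% higher and 1.03% lower). In adults they were 2 and 3, 11.9% against 12% (3.06% higher and 8.92% lower), so the called share was near the background at each age but P10, where it came from 2 members. The libraries of the genotypes did not overlap for 15, 16, 12 and 13 members from E15.5 to adults, against 38.5%, 39.3%, 32.5% and 32.8% of all genes. edgeR called 3 members higher and 0 lower at E15.5, none of them among the 6 that limma called. At P0.5 it called 13 higher and 1 lower, of which 6 were among limma's 11. In adults it called 3 higher and 3 lower, of which 3 were among limma's 5, and at P10 it called 0, with 3 at an unadjusted p under 0.05. Quantile normalization gave 6 higher and 6 lower members at P0.5, and 1 higher member at P10. In all, 19 members were called at 1 or more ages, 4 of them at 2 or more ages (Kcnj15, Kcnk1, Kcnk2 and Kcnn3). The matching shares of all genes were not counted, so neither number is read as a trait of the members.

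At E15.5 the higher members included Kcnk1 and Kcnmb4, which passed 1 CPM in every cord group as well. Kcnk1 had 4.46, 3.16 and 4.97 CPM in Cre-positive libraries, against 0.342, 0.212 and 0.05 in Cre-negative ones (2.10 ± 0.29 SE, adjusted p = 8.9e-05). Kcnmb4 had 5.95, 9.36 and 7.25 CPM in Cre-positive libraries, against 0, 3.03 and 4.55 in Cre-negative ones (1.58 ± 0.46 SE, adjusted p = 0.03). The lower members were Kcnq3, Kcnj15 and Kcnk2. Kcnq3 had 0.101, 0.042 and 0.0555 CPM in Cre-positive libraries, against 4.37, 2.07 and 2.24 in Cre-negative ones (-1.82 ± 0.20 SE, adjusted p = 4.5e-06). No diaphragm library outside these 3 Cre-negative ones reached 1 CPM, so Kcnq3 passed the filter only through the group where it was high. It was not tested without any 1 of them or without the intermediate libraries, and its p-value is given no weight. Kcnj15, an epithelial rectifier, had 0.101, 0.105 and 0.0999 CPM in Cre-positive libraries, against 4.70, 1.72 and 1.38 in Cre-negative ones (-1.59 ± 0.32 SE, adjusted p = 0.0031). Kcnk2, the stretch-sensitive leak channel, was lower too (-0.91 ± 0.25 SE, adjusted p = 0.022). The 2 groups did not overlap for any of these 5 genes. The Kcnmb4 call was lost without E15.5 Cre-negative diaphragm replicate 1 or E15.5 Cre-positive diaphragm replicates 1, 2 or 3 (adjusted p = 0.054 to 0.14), and the Kcnk2 call without E15.5 Cre-positive diaphragm replicates 2 or 3 (adjusted p = 0.067 to 0.08). edgeR called none of the 5 (adjusted p = 0.089 for Kcnk1, 0.58 for Kcnmb4, 0.066 for Kcnq3, 0.16 for Kcnj15 and 0.46 for Kcnk2). At this age the 6 cartilage markers summed to 305 to 3593 CPM in Cre-positive libraries, against 17.9 to 194 in Cre-negative ones. The 6 markers of other spinal neurons summed to 74.5 to 90.6 CPM in Cre-positive libraries, against 8.08 to 12.4 in Cre-negative ones. Slc32a1 and Slc6a5 were at 0 in the Cre-positive libraries. In diaphragm this sum is not specific to neurons. In P0.5 Cre-negative diaphragm it was 359 to 567 CPM with Slc17a6, Slc32a1, Gad1 and Slc6a5 at 0. In adult Cre-negative diaphragm it was 1612 to 2141, against 236 to 275 in adult cord. The part of the cartilage and spinal neuron lists in these differences was not tested.

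At P0.5 the higher members included Kcnq1, a pore subunit of heart and epithelia, and Kcnk1. Kcnq1 had 3.02, 2.54 and 2.62 CPM in Cre-positive libraries, against 0 in all 3 libraries in Cre-negative ones, which is at least 67.7-fold higher (1.90 ± 0.38 SE, adjusted p = 0.0011). Kcnk1 had 1.53, 1.62 and 1.5 CPM in Cre-positive libraries, against 0 in all 3 libraries in Cre-negative ones, at least 38.4-fold higher (1.35 ± 0.29 SE, adjusted p = 0.002). Both folds bound counting error only. Kcnma1 (1.49), Kcnc1 (1.39), Kcnn4 (1.24) and Kcna7 (0.93) were also higher. The lower members were the small-conductance subunits Kcnn2 and Kcnn3, together with Kcnj15 (-1.45) and the sodium-activated Kcnt2 (-1.04). Kcnn2 had 1.25, 0 and 1.03 CPM in Cre-positive libraries, against 22.8, 5.57 and 9.99 in Cre-negative ones (-2.85 ± 0.43 SE, adjusted p = 8.4e-05). Kcnn3 had 0.183, 0.0116 and 0.202 CPM in Cre-positive libraries, against 6.07, 3.44 and 3.68 in Cre-negative ones (-2.22 ± 0.32 SE, adjusted p = 6e-05). Single libraries ended 2 of these calls, Kcnn4 without P0.5 Cre-negative diaphragm replicates 2 or 3 or P0.5 Cre-positive diaphragm replicate 2 (adjusted p = 0.075 to 0.22) and Kcnt2 without P0.5 Cre-negative diaphragm replicates 2 or 3 or P0.5 Cre-positive diaphragm replicates 1, 2 or 3 (adjusted p = 0.083 to 0.18). In edgeR Kcnn2, Kcnj15, Kcnt2 and Kcnn4 were not called (adjusted p = 0.08, 0.089, 0.13 and 0.065), and under quantile normalization the Kcnn4 difference was 0.56 and not called (adjusted p = 0.4). Markers of other tissues differed between the same libraries. At P0.5 the hepatocyte markers summed to 972 to 8006 CPM in Cre-positive libraries, against 65.2 to 92.7 in Cre-negative ones, and the cartilage markers to 192 to 435 in Cre-positive libraries, against 0.38 to 0.84 in Cre-negative ones. Skeletal muscle markers summed to 57399.8 to 59753 CPM in Cre-positive libraries, against 75049 to 89305 in Cre-negative ones, and the part of these lists in the differences was not tested.

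At P10 the only calls were lower ones. Kcna1 had 2.32, 2.24 and 2.02 CPM in Cre-positive libraries, against 6.47, 5.73 and 6.23 in Cre-negative ones (-1.16 ± 0.28 SE, adjusted p = 0.04). Kcnk2 had 0.305, 0.925 and 0.687 CPM in Cre-positive libraries, against 3.39, 2.13 and 1.94 in Cre-negative ones (-1.09 ± 0.25 SE, adjusted p = 0.028). The genotypes did not overlap for either gene. The Kcna1 call was lost without any 1 of the 6 libraries compared (adjusted p = 0.076 to 0.18), and the Kcnk2 call without P10 Cre-negative diaphragm replicates 1 or 3 or P10 Cre-positive diaphragm replicates 1 or 3 (adjusted p = 0.084 to 0.15). The 6 Schwann cell markers summed to 58.4 to 63.2 CPM in Cre-positive libraries, against 155 to 173 in Cre-negative ones at this age, and their part was not tested. In adults Kcnn3 had 0.276, 1.78 and 1.56 CPM in Cre-positive libraries, against 0.0112, 0 and 0.011 in Cre-negative ones (1.05 ± 0.32 SE, adjusted p = 0.036). Kcnab2 had 1.55, 0.458 and 1.0 CPM in Cre-positive libraries, against 0.0897, 0.0228 and 0.0552 in Cre-negative ones (0.89 ± 0.28 SE, adjusted p = 0.044). Lower in adults were Kcnh6, Kcnq5 and Kcnk2. Kcnh6 had 28.0, 16.9 and 21.6 CPM in Cre-positive libraries, against 111, 42.2 and 166 in Cre-negative ones (-2.04 ± 0.33 SE, adjusted p = 0.00026). Kcnq5 had 0.318, 0.963 and 0.529 CPM in Cre-positive libraries, against 4.98, 3.72 and 6.72 in Cre-negative ones (-1.93 ± 0.29 SE, adjusted p = 0.00014), and Kcnk2 was lower as well (-0.78 ± 0.25 SE, adjusted p = 0.046). For all 5 the libraries of the 2 genotypes were separate. The adult calls of Kcnn3, Kcnab2 and Kcnk2 each rested on single libraries: they were lost without adult Cre-negative diaphragm replicates 1, 2 or 3 or adult Cre-positive diaphragm replicates 2 or 3 (adjusted p = 0.071 to 0.16), without adult Cre-negative diaphragm replicates 1, 2 or 3 or adult Cre-positive diaphragm replicates 1 or 3 (adjusted p = 0.087 to 0.16), and without adult Cre-negative diaphragm replicates 1 or 2 or adult Cre-positive diaphragm replicates 1, 2 or 3 (adjusted p = 0.072 to 0.14), in that order. With the replicate number as a block Kcnab2 and Kcnk2 were not called either (adjusted p = 0.051 and 0.059). In edgeR Kcnq5 and Kcnk2 were not called (adjusted p = 0.24 and 0.21). The hepatocyte markers summed to 70.0 to 155 CPM in adult Cre-positive libraries, against 4.06 to 9.08 in Cre-negative ones, and their part was not tested.

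Set against the cord at the same age, Cre-positive diaphragm held most subunits at a lower level, and a few at a higher one. At E15.5, 6 of 71 tested members were higher and 57 lower in diaphragm (88.7% against 73.6% of all genes, of which 21.5% were higher and 52.1% lower). In adults 6 were higher and 54 lower (84.5% against 74.8%, of which 19.5% and 55.3%). The median difference of the members was -1.80 at E15.5 and -2.12 in adults, beside -0.58 and -0.72 for all genes. Other scalings moved the median of all genes by 0.47 to 0.74. The calls left without the intermediate libraries were 55 members (3 higher, 52 lower) at E15.5 and 54 members (3 higher, 51 lower) in adults, beside 57.6% and 62.5% of all genes. The tissues did not overlap for 67 members at E15.5, against 81.4% of all genes, and for 64 in adults, against 79.7%.

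In adults the members higher in diaphragm were led by Kcna7, with 15.45, 14.4 and 15.8 CPM in diaphragm and 0 in all 3 libraries in cord, at least 350.0-fold higher (4.02 ± 0.13 SE, adjusted p = 3e-16). Kcnj8, the vascular ATP-sensitive pore, had 8.76, 4.55 and 6.51 CPM in diaphragm and 0.873, 0.385 and 0.536 in cord (2.23 ± 0.19 SE, adjusted p = 1.3e-09). The tissues did not overlap for either gene. Pericyte and smooth muscle markers summed to 109.9 to 181 CPM in adult diaphragm and 9.66 to 13.7 in adult cord, and their part was not tested. Kcnj11, Kcnn3 and Kcnj2 were higher by 0.47, 0.52 and 0.52, calls that were lost without the intermediate libraries (adjusted p = 0.11, 0.33 and 0.39). The libraries overlapped for Kcnn3 and Kcnj2. Single libraries ended the last 2 calls, Kcnn3 without adult Cre-positive diaphragm replicates 2 or 3 or adult Cre-positive spinal cord replicates 1, 2 or 3 (adjusted p = 0.052 to 0.19) and Kcnj2 without adult Cre-positive diaphragm replicates 2 or 3 or adult Cre-positive spinal cord replicates 1, 2 or 3 (adjusted p = 0.053 to 0.25).

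The members lowest in diaphragm against cord included Kcnj14, Kcna1 and Kcnk1, which were also called higher in adult than in E15.5 cord. Kcnk3 and Kcnmb4 were not called in that comparison. Both comparisons use the same adult cord libraries, so this overlap is partly built in and is given no weight. Kcnj14 had 0, 0 and 0.049 CPM in diaphragm and 132, 134 and 133 in cord in adults (-7.04 ± 0.20 SE, adjusted p = 3.1e-17). Kcna1 had 0.488, 0.355 and 0.471 CPM in diaphragm and 141, 129 and 133 in cord (-6.55 ± 0.13 SE, adjusted p = 1.7e-19). Kcnk3 had 0.0743, 0.178 and 0.049 CPM in diaphragm and 77.6, 73.9 and 75.4 in cord (-6.12 ± 0.18 SE, adjusted p = 1.1e-16). Kcnmb4 and Kcnk1 were also far lower, at -5.97 and -5.85. Kcnip4, Kcnj10, Kcnk9 and Kcnj16 had no read in any of the 3 adult Cre-positive diaphragm libraries, against cord means of 32.5, 27.1, 3.49 and 2.92 CPM. With a floor of 3 reads per library, which covers counting error only, Kcnip4 was at least 1090.0-fold, Kcnj10 at least 911-fold, Kcnk9 at least 117-fold and Kcnj16 at least 98.3-fold lower in diaphragm. Such a gene was not detectable at this depth, which does not show that it is absent. Kcng4 rose with age in both tissues and was still lower in adult diaphragm, with 10.4, 16.6 and 13.9 CPM in diaphragm and 234, 190.1 and 208 in cord (-3.87 ± 0.16 SE, adjusted p = 1.8e-14). Kcnn1 overlapped between the tissues in adults, with 24.9, 11.7 and 14.0 CPM in diaphragm and 14.8, 14.0 and 15.1 in cord, and its difference of 0.12 ± 0.26 was not called (adjusted p = 0.69).

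At E15.5 the diaphragm led in other genes. Kcnn4 had 14.8, 22.9 and 16.5 CPM in diaphragm and 0.732, 0.848 and 0.766 in cord (3.4 ± 0.35 SE, adjusted p = 3.8e-08). The leak channel Kcnk6 had 3.48, 2.24 and 2.73 CPM in diaphragm and 0.202, 0.471 and 0.203 in cord (1.56 ± 0.23 SE, adjusted p = 4.4e-06), both without overlap. Kcne4, an auxiliary subunit (0.96), Kcnk5, a leak channel (0.81), and Kcnh6 (0.80) were also higher. Kcnk5 had 1.12, 1.07 and 1.11 CPM in E15.5 diaphragm, and no other library of this fit reached 1 CPM. Kcnk5 thus passed the filter only through the group where it was high, and its call is given no weight. Without the intermediate libraries Kcne4 was not called (adjusted p = 0.082), and Kcnk5 did not pass the filter and was not tested. The largest decreases were in Kcnip1 and Kcnd2, both of the A-type channel. The other A-type genes ranged from -3.82 in Kcnip4 to -1.78 in Kcnd1, so the lead rests on these first 2 genes. Kcnip1 had 0.776, 0 and 0.733 CPM in diaphragm and 151, 116 and 131 in cord (-6.51 ± 0.16 SE, adjusted p = 4.7e-18). Kcnd2 had 0.686, 1.07 and 0.833 CPM in diaphragm and 37.0, 41.2 and 42.2 in cord (-4.47 ± 0.15 SE, adjusted p = 8e-16). These were followed by Kcnc4 (-4.39), Kcnc1 (-4.00), Kcnab1 (-3.83) and Kcnip4 (-3.82). Kcnj12 was called lower in diaphragm at both ages (-0.50 and -0.94), but the difference changed sign under quantile normalization (0.13 and 0.1) and in edgeR (0.1 and 0.01), so no direction is given. The E15.5 call was lost without E15.5 Cre-positive diaphragm replicate 2 or E15.5 Cre-positive spinal cord replicate 1 (adjusted p = 0.067 to 0.072).

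**Figure D5:**
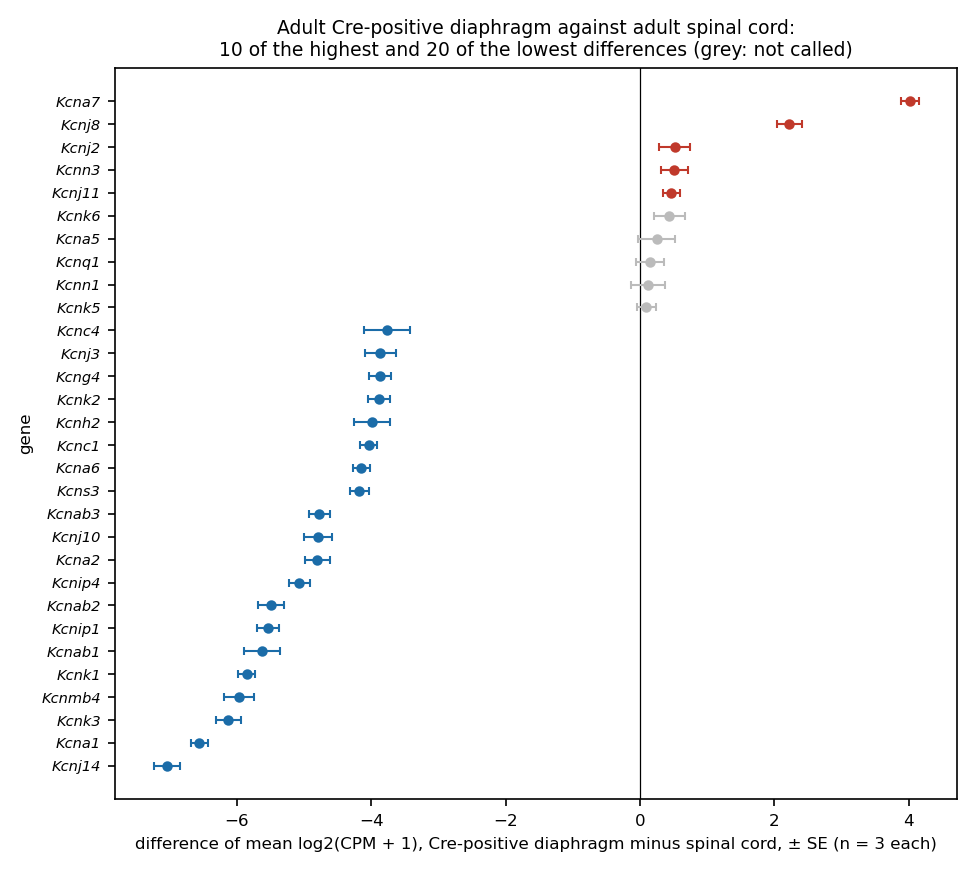
Difference of mean log2(CPM + 1) between adult Cre-positive diaphragm and adult spinal cord (horizontal axis, points with SE, n = 3 libraries each) for 10 of the highest and 20 of the lowest of the 71 tested subunits (vertical axis). Kcna7 is highest at 4.02, grey points were not called, and Kcnj14 is lowest at -7.04.

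Annotation sets limits on some members. By RefSeq coordinates, 10 of the 91 overlap another gene of the table, among them Kcnip1 with Kcnmb1, Kcnab2 with Nphp4, Kcnk2 with Pdcd5-ps, Kcns2 with Gm32970 and Kcnh7 with Gca, and since the strand setting of the counting is not given, reads in those stretches could belong to either gene. The 27 members left out of the cord fit and the 49 left out of the diaphragm fit were under 1 CPM in all but at most 2 libraries, so nothing is said of their changes.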

How the data were processed

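HA-purified RNA from 36 libraries in 12 groups was measured by RNA sequencing; RNA was cleaned with the RNeasy micro kit and libraries were made by BGI, per the labels' protocols. Bowtie2 2.2.5, RSEM 1.2.12 and the mm10 genome are named, with no role, per the submitters' processing notes; the counting rule, strand setting and annotation are not given in the sources used here. The authors deposited 1 table of CPM values of 18845 genes, each library summing to 1000000, not corrected for gene length. Dividing by the step of 1 read gave whole reads within 0.1 for 100.0% of the values of each library, which gave the depths; that of P0.5 Cre-positive diaphragm replicate 3 is an estimate, since its step lies near a round value. Depth intervals and floors cover counting error only. Values were taken as log2(CPM + 1), genes with at least 1 CPM in 3 or more libraries of a fit were kept, and limma 3.58.1 (R 4.3.3, trend and robust) was fitted to the 12 cord, the 24 diaphragm, or the 12 Cre-positive diaphragm and 12 cord libraries, with Benjamini-Hochberg adjustment over all genes kept and calls at an adjusted p under 0.05. The script was tested on simulated data. As alternatives, the fits were repeated with quantile or RLE scaling, without the filter, with a pseudocount of 0.1, with edgeR 4.0.16 (quasi-likelihood, TMM) run on recovered reads, on the 2 compared groups alone, with the replicate number as a block, leaving out the intermediate libraries and leaving out each library. For adult against E15.5 cord, edgeR called 11005 genes and limma 11282. Replicate numbers did not pair the samples: over the 12 comparisons, deviations of libraries of the same number correlated at -0.1 to 0.1. The members, lists and tests were chosen with earlier results of these data known. The text names, per comparison, up to 6 called members per direction by size of difference, provided the higher group averaged 1 CPM or more, and 37 members known from motor neurons, axons, glia or muscle whatever their result; members named only to account for a count were named after their values were seen. Of the members these rules pick, 4 are not reported here; they remain in all counts, sums, medians and tests of the members. Sequences and coordinates are from RefSeq, GRCm38.p6, the mm10 assembly; 66 members have a promoter window there.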

Additional observations from a re-analysis of the deposited data

Results flagged for a closer look

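The results here had every library of both groups moving one way in one comparison and the opposite way in the other; the difference between the comparisons was not tested. Values are differences of mean log2(CPM + 1). In 7 of 33 tested members (21.2%, against 17.4% of all genes tested in both) the adult minus E15.5 difference had one sign in Cre-positive diaphragm and the other in Cre-positive spinal cord, and 6 of them are given here. Kcnk1 differed by -2.34 in diaphragm and 1.97 in cord, Kcnh6 differed by -2.30 in diaphragm and 1.49 in cord, and Kcnh2 differed by -1.36 in diaphragm and 0.96 in cord. Kcnmb4 differed by -2.69 in diaphragm and 0.11 in cord, the cord value being small and not called. Kcnj8 differed by 0.74 in diaphragm and -1.10 in cord, and Kcnma1 differed by 0.85 in diaphragm and -0.67 in cord, with neither diaphragm value called. Kcnj11, a pore of the ATP-sensitive channel, was the 1 member of 42 whose age difference had opposite signs in the 2 genotypes (1.89% of all genes did), neither of them called, 0.80 in Cre-positive diaphragm and -1.08 in Cre-negative diaphragm, with means of 13.7 CPM in adult and 7.45 in E15.5 Cre-positive and 8.38 in adult and 17.0 in E15.5 Cre-negative diaphragm. The Cre-positive minus Cre-negative difference changed sign between ages in 8 of 42 tested members (19.0%, against 15.8% of all genes). Kcnab2 differed by 0.89 in adults and -0.45 at E15.5, Kcnh2 differed by 0.80 in adults and -0.78 at E15.5 and Kcnj11 differed by 0.79 in adults and -1.09 at E15.5. Kcnk6 differed by -1.20 at P10 and 0.91 at E15.5, and Kcnmb4 differed by -0.89 at P10 and 1.58 at E15.5. Kcnma1 differed by -0.84 in adults and 1.49 at P0.5, and Kcnn3 differed by 1.05 in adults and -2.22 at P0.5. Kcnn2 changed sign at 2 steps, with -2.85 at P0.5, 0.70 at P10 and -1.12 in adults. Of these Cre-positive minus Cre-negative differences, only those of Kcnab2 in adults, Kcnmb4 at E15.5, Kcnma1 and Kcnn2 at P0.5, and Kcnn3 at both ages were called, and none was called without the intermediate libraries.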

How the results depend on the processing

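Of 253 differences of 58 named genes, repeated 3509 times, 3230 repeats kept their direction and their side of the threshold, 260 were no longer called, 12 changed sign and the others were newly called; the causes were not tested. Leaving out the intermediate libraries ended 59 calls, and the replicate block 5. The counts of members called in the cord and between the tissues stayed within 1.5 times their value under every alternative. With 1 library left out at a time they were 41 to 45 at P0.5 against E15.5, 46 to 49 at P10 against P0.5, 39 to 42 in adults against P10, 54 to 56 in adults against E15.5, and 62 for the tissues at E15.5 and 58 to 61 in adults. Between the genotypes, the 6 calls at E15.5 became 12 without the expression filter, 0 without the intermediate libraries and 3 to 6 with 1 library left out (3 without Cre-positive replicate 2 or 3, 4 without replicate 1), and edgeR called 3 members there, none of them among the 6. The 11 calls at P0.5 became 6 in a fit of only the 2 groups, 0 without the intermediate libraries and 8 to 14 with 1 library left out. The 2 calls at P10 became 0 with a pseudocount of 0.1, in edgeR and without the intermediate libraries, 1 under quantile and RLE scaling and with the replicate block, and 0 to 1 with 1 library left out. The 5 calls in adults became 3 in a fit of only the 2 groups and with the replicate block, 0 without the intermediate libraries and 2 to 6 with 1 library left out (2 without Cre-negative replicate 1 or Cre-positive replicate 3, 3 without Cre-negative replicate 2 or Cre-positive replicate 1 or 2). The replicate block left the counts at 6 at E15.5 and 10 at P0.5 and, in the cord, at 46, 50, 45 and 58 for the comparisons in the order above. For age in the diaphragm, the 19 calls in Cre-positive libraries became 9 without the intermediate libraries and 12 to 17 with 1 library left out (12 without E15.5 replicate 3), and the 23 in Cre-negative libraries became 36 without the filter, 15 in a fit of only the 2 groups, 11 without the intermediate libraries and 15 to 22 with 1 library left out (15 without E15.5 replicate 2). Signs changed as follows. Under quantile, RLE and TMM scaling in that order, adult minus E15.5 in cord became 0.32, 0.13 and 0.16 for Kcnb2 and 0.18, 0.42 and 0.42 for Kcnk3, and the E15.5 tissue difference of Kcnj12 became 0.13, 0.01 and 0.1; its adult one became 0.1 under quantile and 0.01 under TMM scaling, and adult minus P10 in cord became 0.06 for Kcnk10 under quantile normalization. A member at 0 is bounded, for counting error only, by a floor of 3 reads, 0.0280 to 0.0471 CPM.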
